A study of Mus musculus with 8 samples.

Results

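The 10 genes described here are classical targets of the hypoxia-inducible factors (HIF): Vegfa, Adm, Egln1, Egln3, P4ha1, Higd1a, Bnip3, Ndrg1, Ddit4 and Ankrd37. They were listed by name and found by gene symbol, with all their probes. Of the 10, 9 had a probe (15 probes in all) among 16593 genes and 25697 probes on the array, and Ankrd37 was not analysed here. Total RNA came from an immortalized mouse brown adipocyte line differentiated for 8 days. For 18 h, 4 samples were kept with DMSO as vehicle and 4 with 10 µM of Z16078526, a compound known here by its code name only. The study set out to describe what the compound does to brown adipocytes. All samples come from 1 line at 1 time, and the compound was given at 1 dose. The sources used here do not give the origin of the line or the oxygen level of the cultures. Nor do the labels say whether the 4 samples of a group were grown apart, so the p-values rest on a spread between samples that may be technical.

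HIF is a pair of proteins, an oxygen-regulated alpha subunit and the stable partner ARNT. With oxygen present, prolyl hydroxylases of the EGLN family mark the alpha subunit, the VHL ubiquitin ligase binds the mark, and the protein is degraded. When oxygen or hydroxylase activity falls, HIF accumulates and binds short DNA elements near genes for glucose use, vessel growth, mitochondrial turnover and matrix formation. In fat tissue, where cells enlarge and brown adipocytes burn fuel at a high rate, this pathway is known for its part in vessel supply and in the choice of fuel. Because HIF is controlled mainly through the stability of the protein, the RNA level of its subunits says little about its activity.

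The HIF target genes did not move as a block. Higd1a, P4ha1 and Egln3 rose with Z16078526, by 1.84-fold, 1.44-fold and 1.20-fold. Egln1 lay lower in the treated cells on all 3 of its probes, at 1.38-fold on the brightest, without passing the test there. Vegfa, Adm, Ndrg1, Ddit4 and Bnip3 did not pass the test. A gene was called at a limma adjusted p under 0.05, with Benjamini-Hochberg adjustment over all genes. That made 3 of 9 members higher and 0 lower, where 7.97% of all genes were called higher, 7.19% lower and 15.2% in either direction, and where 30.5% of the genes above the floor on all 8 arrays were called. At an unadjusted p under 0.05 the count was 3 higher and 1 lower, the lower 1 being Egln1, against 25.1% of all genes. Groups did not overlap in 3 members that were higher and 1 that was lower, against 10.6% and 9.20% of all genes and 19.8% in both directions together. With a minimum of 1.5-fold, only Higd1a of the 9 was called, against 5.33% of all genes. The median log2 difference (Z16078526 minus DMSO here and throughout) of the 9 genes was 0.14, and that of all genes was 0.

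The arrays of the study stood close together. Across genes, a description since genes are not independent replicates, the log2 values of any DMSO pair had a Pearson r of 0.9959 to 0.9966. The range was 0.9929 to 0.9952 for treated pairs and 0.9888 to 0.9925 for pairs across groups. Each array had 13528 to 13564 probes above an intensity of 16, the floor used here, which is 4 on the log2 scale. Among the 7965 genes that all arrays measured above that floor, 31.0% of the variation within groups lay along a single component, with treated 1 at 1 end (loading -0.69) and treated 3 at the other (0.69). The cells carried the markers of fat cells: 11 of 13 brown adipocyte markers were above the floor on all arrays, with Adipoq at a log2 level of 14.48 in DMSO, while Dio2 and Prdm16 were at the floor on all 8 and Ucp1, the uncoupling protein that defines brown fat, was near it at 4.87. Of these 13 markers, 4 rose (Cidea, Fabp4, Ucp1 and Cox8b) and 1 fell (Pparg). That is 38.5% called, against 15.2% of all genes and 30.5% of those above the floor on all arrays. The summed intensity of the 13 was 58080 to 61136 in DMSO and 56276 to 60317 in treated samples. Of 6 measured endothelial markers, Cdh5, Kdr, Emcn and Vwf were at the floor on all arrays. Of 5 leukocyte markers, Ptprc, Lyz2 and Itgam were. Summed intensities of these lists were 97.5 to 116 in DMSO and 96 to 110.2 in treated samples for endothelial markers, and 80 to 94.3 against 83.6 to 105 for leukocyte markers.

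**Figure D1:**
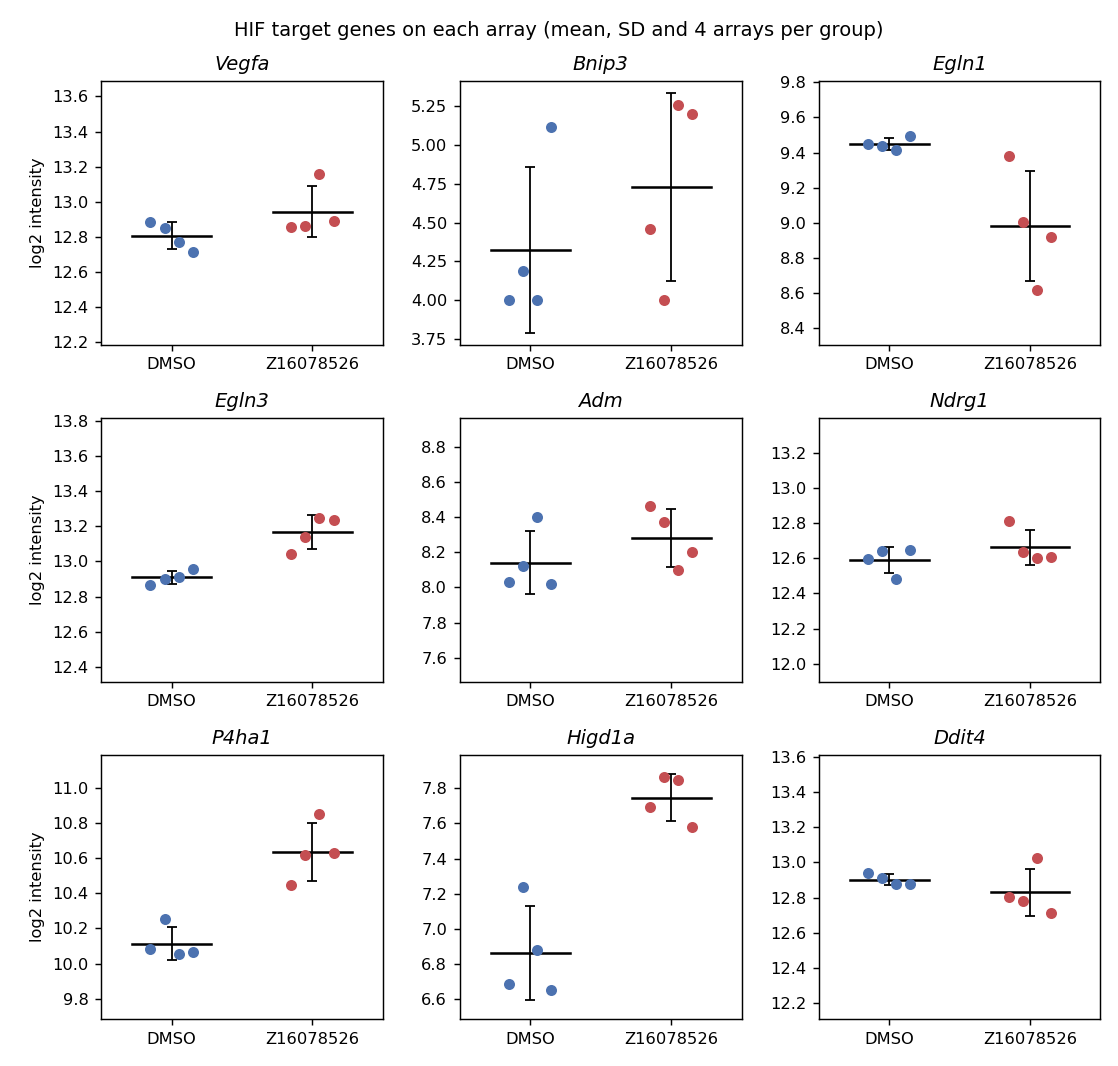
Log2 intensity of the brightest probe of each of the 9 measured HIF target genes, by group. Points are single arrays (4 per group), bars the mean, whiskers the SD. Each panel has its own vertical scale, and 4 is the floor. Treated arrays lie above all DMSO arrays for Egln3, P4ha1 and Higd1a and below them for Egln1, and the groups overlap in the other 5 genes.

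The promoters of the 3 genes that rose and of Egln1 are shown because HIF acts through the 5-base core of the hypoxia response element, ACGTG or GCGTG. Each line gives the 250 bases before the gene's start, 5′ to 3′ on the gene's own strand, from RefSeq on GRCm38.p6, with every core on either strand in capitals.
Higd1a, chr9:121857797-121858046, minus strand: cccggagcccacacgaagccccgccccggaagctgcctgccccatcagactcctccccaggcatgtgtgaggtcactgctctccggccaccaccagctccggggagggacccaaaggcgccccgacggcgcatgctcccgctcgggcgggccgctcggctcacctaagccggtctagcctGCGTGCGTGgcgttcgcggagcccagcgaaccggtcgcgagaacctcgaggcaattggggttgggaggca
P4ha1, chr10:59323046-59323295, plus strand: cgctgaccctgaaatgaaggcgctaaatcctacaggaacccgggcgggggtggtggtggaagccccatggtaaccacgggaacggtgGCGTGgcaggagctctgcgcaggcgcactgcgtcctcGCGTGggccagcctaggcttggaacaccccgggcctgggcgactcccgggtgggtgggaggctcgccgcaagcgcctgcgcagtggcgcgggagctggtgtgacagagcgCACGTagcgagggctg
Egln3, chr12:54203875-54204124, minus strand: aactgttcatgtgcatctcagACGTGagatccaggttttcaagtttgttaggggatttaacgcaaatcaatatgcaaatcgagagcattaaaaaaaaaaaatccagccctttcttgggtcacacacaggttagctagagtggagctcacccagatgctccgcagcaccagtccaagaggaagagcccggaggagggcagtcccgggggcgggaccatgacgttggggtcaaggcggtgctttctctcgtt
Egln1, chr8:124949255-124949504, minus strand: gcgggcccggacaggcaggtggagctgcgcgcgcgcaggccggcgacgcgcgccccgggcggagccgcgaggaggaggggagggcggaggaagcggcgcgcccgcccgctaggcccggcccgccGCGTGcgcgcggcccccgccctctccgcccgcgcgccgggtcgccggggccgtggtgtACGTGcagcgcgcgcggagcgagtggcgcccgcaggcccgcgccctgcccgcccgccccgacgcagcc
In the window from 250 bases before to 50 bases after the start, Higd1a and P4ha1 each held 3 cores, Egln1 held 2 and Egln3 held 1. In Higd1a a pair of overlapping GCGTG cores starts 70 and 66 bases upstream, and its other core lies 44 bases downstream, outside the stretch printed. Windows were given for 9 of the 10 listed genes, and each of the 9 genes had at least 1 core. Vegfa counts only through the second of its 2 windows (chr17:46025114-46025413). On the minus strand this window lies downstream of the first (chr17:46032328-46032627), which had no core. Such cores are common: 43.8% of all 32851 mouse promoter windows of this length held at least 1, and 51.8% of the windows of genes measured here did. At least 3 cores were found in 4 of the 10 windows of the listed genes (Bnip3, Ankrd37, P4ha1 and Higd1a), in 8.93% of all windows and in 12.2% of the windows of genes measured here. In Bnip3, which had 5, a pair of cores is the 2 strands of 1 E-box, CACGTG, a motif bound by other factors as well, so a core count overstates separate sites there. Ddit4 and Adm, which were not called, held 2 each. A match in this window describes the letters only.

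Egln1 and Egln3 encode 2 of the 3 prolyl hydroxylases that sense oxygen for HIF, and both are HIF targets themselves, so that HIF feeds back on its own removal. Egln3, which encodes PHD3, had intensities of 7464, 7642, 7709.7 and 7945 on DMSO arrays 1 to 4 and 8425, 9035, 9728 and 9661 on treated arrays 1 to 4. Every treated array was above every DMSO array. The rise was 1.20-fold (log2 difference 0.26 ± 0.05 SE, limma adjusted p = 0.0170, each group having 4 arrays throughout), and without DMSO 1 the call was lost (0.24, adjusted p = 0.0542). The second Egln3 probe, a dim one, read 99.4, 128, 99.4 and 146 in DMSO and 181, 268, 225 and 147 in treated cells. It gave a larger difference of 0.78 ± 0.22 that did not pass among all probes (adjusted p = 0.0761), and its groups only just separated, at DMSO 4 and treated 4.

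Egln1, which encodes PHD2, the main HIF hydroxylase, gave 698, 692, 683 and 721 in DMSO and 666, 515, 394 and 484 in treated cells on its brightest probe. All treated values were lower, with treated 1 close to DMSO. The log2 difference was -0.47 ± 0.15 SE (adjusted p = 0.0956, 95% interval -0.83 to -0.11), and the SD was 0.31 among treated arrays against 0.03 among DMSO arrays. Without treated 1 it was -0.60 with an adjusted p of 0.0140. The second probe read 719, 596, 674 and 624 in DMSO against 557, 415, 358 and 347, and the dimmest 387, 324, 354 and 362 against 315, 248, 209.9 and 199. Neither overlapped between groups. Tested singly among all 25697 probes, of which 12.7% were called, the differences of these probes were -0.66 ± 0.16 (adjusted p = 0.0417) and -0.58 ± 0.15 (0.0568). Whether Egln1 passed thus depended on the probe and on the fit. With only genes above the floor on at least 4 arrays the brightest probe was called too (adjusted p = 0.00673).

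Of 19 measured relatives from the families of the members, 1 was called higher (Bnip3l) and 5 lower (Ddit4l, Vegfd, Vegfb, Vegfc and P4hb), and each is described beside its member. That is 31.6% called, close to the 30.5% of all genes above the floor on all arrays, as 14 of the 19 were. Egln2, the remaining hydroxylase of the family, read 156 to 255 in DMSO and 196 to 238 in treated cells, and these ranges overlapped (log2 difference 0.23 ± 0.16, adjusted p = 0.550).

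**Figure D2:**
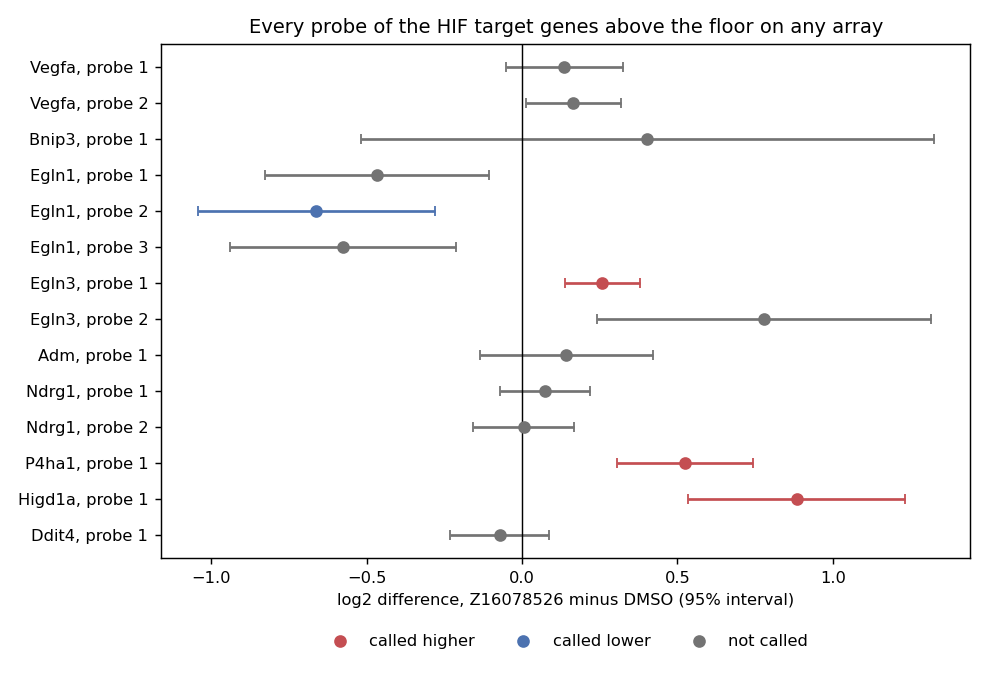
Log2 difference, Z16078526 minus DMSO, for each of the 14 probes of the HIF target genes that were above the floor on any array, with 95% intervals from the fit over all probes; colours mark called probes. Probes are numbered by brightness within a gene. The 3 Egln1 probes lie left of 0 and both Egln3 probes right of 0, while both Ndrg1 probes cross 0.

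Vhl, the recognition subunit of the ligase that removes hydroxylated HIF, was among the genes that rose. Its intensities were 169, 151, 143 and 158 in DMSO and 263, 261, 416 and 305 in treated cells, without overlap and with treated 3 highest. It rose 1.97-fold (log2 difference 0.98 ± 0.16, adjusted p = 0.00895). Rbx1, the RING subunit of the same ligase, rose 1.15-fold on its brighter probe (adjusted p = 0.0238), while its second probe gave -0.12 and the mean of both was not called (0.04, adjusted p = 0.699). Of the 8 arrays, 6 left out singly ended the Rbx1 call (up to 0.0686). Of 19 measured genes for HIF subunits and their control, 2 were called higher and 3 lower, 26.3% in all, against 15.2% of all genes and 30.5% of those above the floor on all arrays. Those lower were Os9, a lectin of the endoplasmic reticulum (1.67-fold, adjusted p = 0.00220), Cited2, which competes with HIF for the coactivators p300 and CBP (2.02-fold, 0.0236), and the deubiquitinase gene Usp20 (1.31-fold, 0.0248). Os9 stayed called without any single array (adjusted p up to 0.0104), while 5 of the 8 arrays, left out singly, ended the call of Cited2 (up to 0.0709) and 5 that of Usp20 (up to 0.0692). The median difference of the list was 0.

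The subunit genes themselves did not pass. Hif1a read 229.5, 223, 258 and 214 in DMSO and 325, 214, 111 and 149.8 in treated cells, so treated 1 was the highest and treated 3 the lowest of all 8 arrays. Its log2 difference of -0.32 ± 0.32 (adjusted p = 0.720) has a 95% interval of -1.10 to 0.46. Epas1, the gene for HIF-2 alpha, was dim at 27 to 41.4 in DMSO and 15.4 to 33.6 in treated cells (log2 difference -0.75 ± 0.26, adjusted p = 0.123). It was called without treated 1 (-0.98, adjusted p = 0.0180) and when only genes above the floor on at least 4 arrays were fitted (-0.75, 0.0407). The other Epas1 probes, at or near the floor, gave 0.05 and -0.10. Arnt, the shared partner, differed by -0.02 ± 0.09 (adjusted p = 1), and its sign turned with the mean of its probes (0.21) and without DMSO 1 or treated 2. Hif1an, the asparaginyl hydroxylase that blocks HIF's transactivation domain, was at the floor on all 8 arrays, so no level or change can be given for it.

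Vegfa, the main growth factor for blood vessels, read 7562, 7397, 6993 and 6729 in DMSO and 7423, 7441, 9149 and 7602 in treated cells on its brightest probe. Apart from treated 3, the treated arrays lay within or just above the DMSO range. The log2 difference was 0.14 ± 0.08 (adjusted p = 0.402), and the 95% interval of the fold was 0.964 to 1.25. A second probe gave 2175, 2079.8, 2015 and 1830.2 in DMSO and 2431, 2270.2, 2117 and 2252 in treated cells, with treated 3 inside the DMSO range (0.16 ± 0.06, adjusted p = 0.180). The remaining Vegfa probe was at the floor on all arrays. Without treated 3, the difference of the brightest probe was 0.06.

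The ligands Vegfb, Vegfc and Vegfd were called lower, while Pgf, the placental growth factor gene, was not called (log2 difference -0.41 ± 0.41, adjusted p = 0.712) and was above the floor on 3 DMSO and 2 treated arrays. Vegfb, a ligand of the receptor FLT1, fell from 7283, 7125, 6456 and 7350.0 in DMSO to 5739, 5206, 4909 and 5640.0, without overlap (1.31-fold, log2 difference -0.39 ± 0.07, adjusted p = 0.00953). Vegfd, a lymphatic growth factor, fell from 736, 917, 740.4 and 687 to 519.9, 462, 457 and 488 (1.59-fold, adjusted p = 0.00573). Vegfc, also lymphatic, was dim at 40.7 to 58.9 in DMSO and 21.3 to 36.8 in treated cells (1.81-fold lower, adjusted p = 0.0280), and it was no longer called when any of 6 single arrays was left out or at a floor of 50.

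Among the 13 measured genes of VEGF and angiopoietin ligands and their receptors, 6 fell and 0 rose. The counts were 6 and 0 at an unadjusted p under 0.05, too. Of all genes 7.19% were called lower, and of the 7965 genes above the floor on all arrays 1149 were. In either direction 46.2% of the list was called. The share was 15.2% of all genes and 30.5% of those above the floor on all arrays, as 7 of the 13 were. The median difference was -0.21. Besides the 3 VEGF ligands, those that fell were Angpt1, whose product steadies vessels through TIE2, and the receptor genes Flt1 and Tek. Angpt1 fell 3.09-fold, from 230.2 to 282 in DMSO to 49.5 to 139 in treated cells (log2 difference -1.63 ± 0.30, adjusted p = 0.0143). Flt1, named after its values were seen, was 1.86-fold lower (adjusted p = 0.0176), a call that ended without DMSO 3 (0.0528) or treated 2 (0.0513). Angpt1 and Flt1 each had a second probe, which was at the floor on all arrays. Tek, the TIE2 gene, was barely above the floor in DMSO and at the floor in all treated arrays, at least 1.16-fold lower. It was not called at a floor of 50, nor when only genes above the floor on at least 4 arrays were fitted (adjusted p = 0.550). The list kept 4 to 6 of these calls when single arrays were left out. Of 8 measured preadipocyte and fibroblast markers, 2 fell (Dcn and Vim), 0 rose and Thy1 was at the floor throughout. The share called was 25%, against 30.5% of all genes above the floor on all arrays, as 7 of the 8 were. Col1a1, Pdgfrb, Dlk1, Pdgfra and Cd34 differed by -0.32 to -0.07 and did not pass. The summed intensity of the 8 was 14218 to 16327 in DMSO and 9023 to 12413 in treated samples. Vim, their brightest gene (log2 level 13.18 in DMSO, 12.55 in treated samples), weighs most in this sum. The part of these markers in the result was not tested. In these bulk samples, fewer cells of a type and less RNA per cell cannot be told apart.

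**Figure D3:**
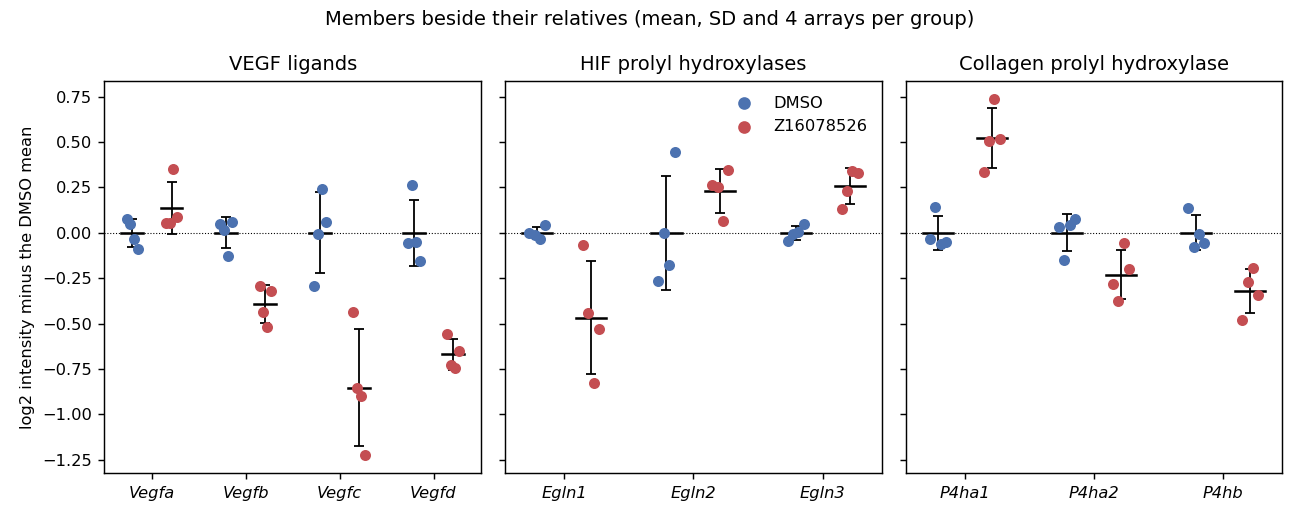
Log2 intensity minus the DMSO mean of each gene, for the VEGF ligands, the HIF prolyl hydroxylases and the subunits of collagen prolyl hydroxylase. Points are arrays, bars the mean and whiskers the SD of 4 arrays per group. Vegfa, Egln3 and P4ha1 lie at or above 0 in treated samples while Vegfb, Vegfc, Vegfd, Egln1 and P4hb lie below it. Treated P4ha2 arrays lie below 0 too, but overlap the DMSO arrays.

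Adm encodes adrenomedullin, a peptide that widens vessels. It read 261, 278, 337 and 259 in DMSO and 353, 332, 274 and 294 in treated cells, in overlapping ranges. The log2 difference was 0.14 ± 0.12 (adjusted p = 0.668), and the 95% interval of the fold was 0.909 to 1.34. Of 8 measured genes for its receptors, relatives and processing, 1 fell, 0 rose and Adm2 alone was higher at an unadjusted p under 0.05 (log2 difference 0.48, adjusted p = 0.0868). That is 12.5% called, against 15.2% of all genes. The gene that fell was Ramp2, which turns the receptor CALCRL into an adrenomedullin receptor. Ramp2 read 358, 393, 383 and 350.4 in DMSO and 179.8, 159, 199.7 and 202 in treated cells, a 2.01-fold drop (log2 difference -1.01 ± 0.09, adjusted p = 0.000967). Calcrl was at the floor on all 8 arrays.

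P4ha1, the catalytic subunit of collagen prolyl 4-hydroxylase, read 1083, 1220.2, 1063 and 1069.7 in DMSO and 1395, 1573, 1847 and 1582 in treated cells. The groups did not overlap, and treated 1 lay nearest to DMSO. It rose 1.44-fold (log2 difference 0.52 ± 0.09, adjusted p = 0.0114) and stayed called without any single array (adjusted p up to 0.0388). Its relatives went the other way or did not pass. P4hb, the subunit shared by the collagen hydroxylases, was 1.25-fold lower (adjusted p = 0.0346). With single arrays left out its adjusted p reached 0.0867, and 7 of them ended the call. P4ha2 differed by -0.23 ± 0.08 (adjusted p = 0.127). When only genes above the floor on at least 4 arrays were fitted, P4ha2 was called lower (-0.23, adjusted p = 0.0239).

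Higd1a, a small protein of the inner mitochondrial membrane that associates with the respiratory chain, changed the most of the called members. Its intensities were 103, 151, 118 and 101 in DMSO and 207, 233, 231 and 192 in treated cells, with DMSO 2 nearest to the treated range and no overlap. It rose 1.84-fold (log2 difference 0.88 ± 0.15, adjusted p = 0.00977), and 1.44-fold is the lower end of its 95% interval. It stayed called without any single array, with an adjusted p of up to 0.0355. Of its family, Higd2a differed by -0.06 (adjusted p = 0.0640), Higd1b by 0.05, and Higd1c was at the floor throughout.

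Bnip3 encodes a receptor for the removal of mitochondria by autophagy. It was at the edge of detection, with 5.25, 18.2, 8.3 and 34.6 in DMSO and 22.0, 14.4, 38.1 and 36.7 in treated cells. Only 2 DMSO and 3 treated arrays were above the floor, so its difference of 0.40 ± 0.39 (adjusted p = 0.684) measures little. Its close relative Bnip3l, also a mitophagy receptor, was well above the floor and rose. It read 6973, 6729, 6942 and 6259.7 in DMSO and 8193, 8173, 9713 and 8501 in treated cells, without overlap (1.28-fold, log2 difference 0.36 ± 0.07, adjusted p = 0.0138).

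Ndrg1, a stress-responsive gene that is a common marker of hypoxia, read 6181, 6381, 5723 and 6407 in DMSO and 7189, 6363, 6222 and 6231 in treated cells. Only treated 1 lay above the DMSO range. The differences of its 2 probes were 0.07 ± 0.06 (adjusted p = 0.664) and 0.00 ± 0.07, and the 95% interval of the fold on the brighter was 0.952 to 1.16. Ndrg2 and Ndrg3 differed by 0.07 and 0.11 and did not pass either, and Ndrg4 was at the floor throughout.

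Ddit4 encodes REDD1, which restrains the growth kinase mTORC1 through the TSC complex. It read 7868, 7700.5, 7531 and 7531 in DMSO and 7142, 7043, 8323 and 6715 in treated cells. Treated 3 was the highest of all 8 arrays and the other treated arrays were the 3 lowest. The log2 difference was -0.07 ± 0.07 (adjusted p = 0.684). Without treated 3 it was -0.14, a decrease that was called (adjusted p = 0.0338). Its relative Ddit4l, which also restrains mTORC1, fell 1.74-fold (log2 difference -0.80 ± 0.11, adjusted p = 0.00460). Of 15 measured genes of the mTORC1 branch, 2 rose, Tbc1d7 (1.26-fold) and Akt1s1 (1.25-fold), and 3 fell, Tsc2 (1.28-fold), Eif4ebp2 (1.43-fold) and Deptor (1.24-fold). That is 33.3% called, close to the 30.5% of all genes above the floor on all arrays, as 14 of the 15 were. Single arrays left out ended the calls of Akt1s1 (5 of 8 arrays) and Deptor (6 of 8), and a second Tbc1d7 probe gave -0.04.

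Hypoxia is not the only route to some of these genes: Ddit4 also responds to the stress factor ATF4 and to glucocorticoids, and Vegfa to ATF4. Of 10 measured genes of ATF4 and stress, 4 rose and 0 fell (5 and 1 at an unadjusted p under 0.05), with a median difference of 0.28. That is 40% called, against 30.5% of all genes above the floor on all arrays, as these 10 were. They were Ppp1r15a (1.55-fold, adjusted p = 0.000222), which encodes a regulator of the eIF2 phosphatase, the asparagine synthetase gene Asns (1.62-fold), Atf3 (2.13-fold) and Ddit3 (1.44-fold). On the brightest Ddit3 probe 6 of the 8 arrays, left out singly, ended the call. Its second probe (0.64, adjusted p = 0.00546) and the mean of both (0.58, 0.0113) were called. Atf4 itself was not called (-0.16 ± 0.17, adjusted p = 0.764). Trib3 (0.21), Chac1 (0.27), Sesn2 (0.30), Herpud1 (-0.02) and Cebpb (-0.30, groups without overlap) did not pass either. The part of ATF4 in these changes was not tested. Of 8 glucocorticoid-responsive genes, Mt2 rose (1.57-fold, adjusted p = 0.0187, lost when any 1 of 5 arrays was left out) and Fkbp5, a standard marker of glucocorticoid action, fell (1.51-fold, adjusted p = 0.00782). The glucocorticoid-responsive list had 25% called, against 30.5% of all genes above the floor on all arrays, as its 8 genes were. The median difference of this list was -0.07.

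The glycolytic branch of the HIF response held no called gene. Of 18 measured genes for glucose uptake, glycolysis and lactate export, 0 were called in limma in either direction (3 higher and 1 lower at an unadjusted p under 0.05). Of all genes 15.2% were called, and of those above the floor on all arrays, as all 18 were, 30.5%. The median difference was 0.00. Slc2a1, the glucose transporter GLUT1, differed by 0.06 ± 0.05 (adjusted p = 0.684), with a 95% interval of -0.07 to 0.19. Ldha, lactate dehydrogenase, differed by 0.01 ± 0.03 (interval -0.06 to 0.09), with the sign turned without DMSO 1. Ldha lay near the top of the scale. It read 28292 on DMSO 4, treated 1 and treated 4 alike, and the maximum of every array was 41175. How far the top of the scale narrows the differences of such bright genes was not tested. Pdk1, which diverts pyruvate from the mitochondria, differed by 0.10 ± 0.04 (adjusted p = 0.162) and was called without treated 4 (0.13, 0.0305). Pgk1 had a wide interval, -1.10 to 0.25 around -0.42. As with Hif1a, treated 1 was the highest and treated 3 the lowest of all its arrays, at intensities of 239.7 and 90.1. With dim genes left out of the fit, 1 gene of this list was called higher and 1 lower.

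Other HIF targets split in both directions. Of 31 measured, 9 rose and 6 fell, with a median difference of 0.04. That is 48.4% called, against 15.2% of all genes and 30.5% of those above the floor on all arrays, as 23 of the 31 were. The risers with the smallest p were Angptl4, whose product blocks lipoprotein lipase (1.60-fold higher, adjusted p = 0.000449), and Hilpda, a lipid droplet protein (1.93-fold, 0.000497), both also targets of the PPAR receptors, then Wsb1 (1.35-fold) and the heme oxygenase gene Hmox1 (1.62-fold). Hilpda read 1918, 1994, 1961 and 1857 in DMSO and 3370.0, 3677, 4068 and 3858 in treated cells. Kdm3a, a histone demethylase, rose 1.15-fold (adjusted p = 0.0258), a call that 6 of the 8 arrays ended when left out singly. A second Kdm3a probe was called too (0.32, adjusted p = 0.0357), another gave 0.01, and the mean of the 3 was called (0.18, 0.00444). Among those that fell were Errfi1 (1.66-fold), Loxl2, a collagen cross-linking enzyme (1.88-fold), the demethylase gene Kdm4b (1.24-fold) and Car9. A second Kdm4b probe gave -0.06 with overlapping groups, and the remaining Kdm4b probe was at the floor on all arrays. Car9, the carbonic anhydrase used as a marker of hypoxia, read 3628, 3749, 3827 and 4091 in DMSO and 3184, 3021, 2989 and 2789 in treated cells. It fell 1.28-fold on its brightest probe (log2 difference -0.35 ± 0.05, adjusted p = 0.00619), while its other probes gave -0.06 and -0.63 and the mean of the 3 was not called (adjusted p = 0.0579).

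**Figure D4:**
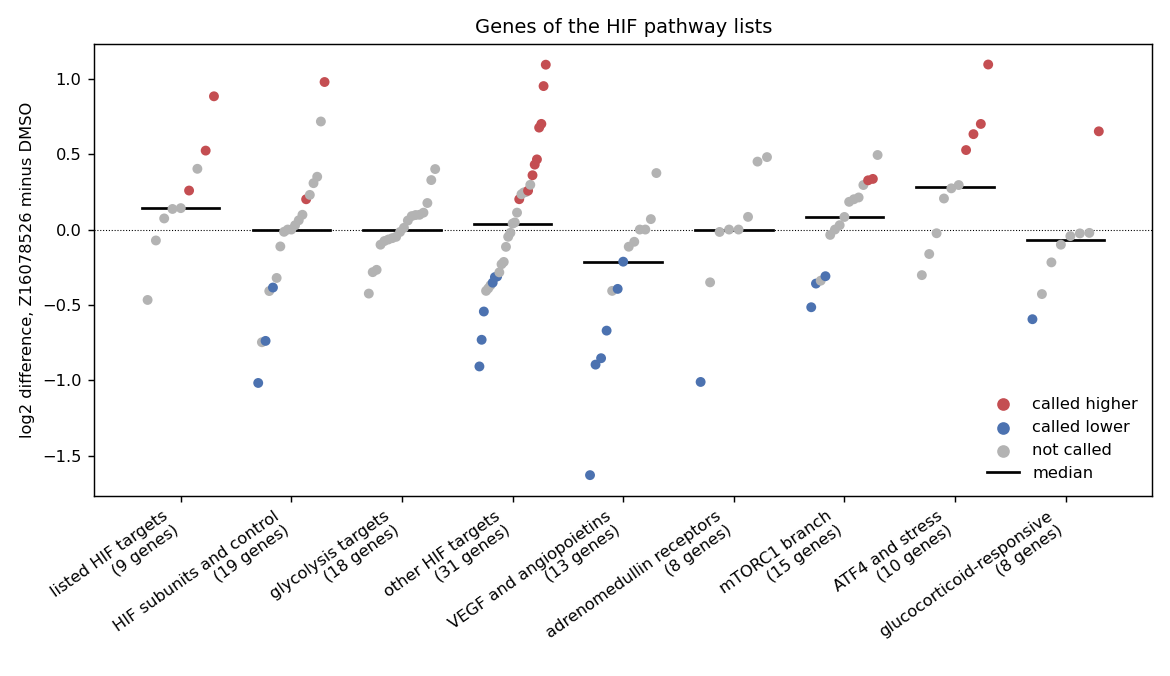
Log2 difference, Z16078526 minus DMSO, of each measured gene in the listed HIF targets and 8 related lists. Red and blue points were called higher and lower at an adjusted p under 0.05, grey points were not called, and black bars are list medians. The 18 glycolysis genes hold no called gene, and the called genes among VEGF and angiopoietin genes all lie below 0.

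The calls among the 9 members were compared over other ways of processing the same intensities. Higd1a, P4ha1 and Egln3 kept a positive difference and Egln1 a negative one in all the settings run. Egln1 crossed the threshold in several of them, as the plot of settings shows, and with treated 1 and 3 both left out, a pair chosen after the data had been seen, Higd1a was not called (log2 difference 0.86, adjusted p = 0.0790) and Ddit4 was called lower (-0.15, 0.0480).

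**Figure D5:**
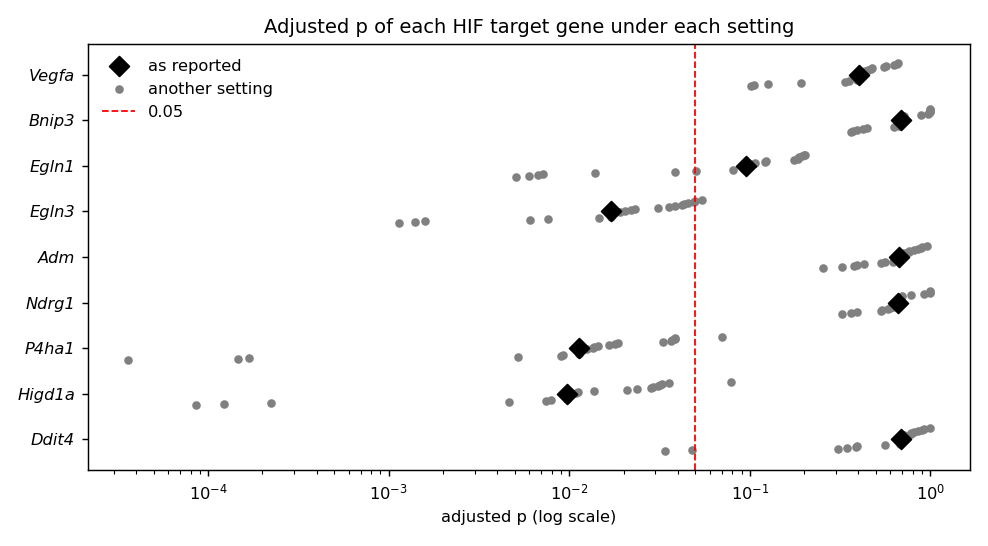
Limma adjusted p, on a log axis, of the 9 measured HIF target genes. Black diamonds are the values reported, grey points single alternative settings, and the dashed line marks 0.05. Most points of Higd1a, P4ha1 and Egln3 lie left of the line, those of Egln1 lie on both sides, and those of Vegfa, Bnip3, Adm and Ndrg1 all lie right of it.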

How the data were processed

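The authors deposited 1 table of array intensity per probe on a linear scale, 8 columns, 1 per sample. GenomeStudio is named per the submitters' processing notes; no version is named there. On each array 28.3% to 28.4% of the values were negative, a trait of background-subtracted data, and all columns shared 1 upper quartile and 1 maximum, a trait of quantile normalization; no source used here states either step. Detection p-values were not used here, and the number of arrays limits the precision.

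Intensities were set to at least 16 and log2 was taken. Of the probes, 23978 had 1 gene symbol in the series' probe table, none had several and 1719 had no symbol, and 99.9% of the named probes' genes were in RefSeq GRCm38.p6. The probe with the highest mean intensity stood for a gene, and every probe of the members was also tested singly. Groups were compared with limma 3.58.1 in R 4.3.3 (lmFit, eBayes with trend, two-sided, group as the only term), with Benjamini-Hochberg adjustment over all genes or all probes. The fit was tested on simulated data. Genes at the floor on all arrays (5504) were kept, and left prior degrees of freedom of 0.574. The members and the gene lists were chosen with earlier results of these data known. The text names the 10 members, 15 fixed HIF pathway genes (those for the subunits, hydroxylases and VHL, and well-known targets) and, from each list, up to 4 called genes per direction with the smallest p and no overlap; others are named to spell out small counts, to describe relatives of a member, or as cell type markers. The deposited table gives no coordinates, so promoters come from RefSeq alone. Alternatives were other scalings, floors, filters, variance models, probe choices and thresholds, a replicate block, and arrays left out.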

Additional observations from a re-analysis of the deposited data

Results flagged for a closer look

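Of 30 sets of 4 arrays (15 probes in 2 groups), 4 held an array far from the other 3, by Dixon's test at the 95% level. Chance flags about 1 in 20 sets. Vegfa on its brightest probe had a log2 value of 13.16 on treated 3 against 12.86 to 12.89 on the other treated arrays, and without treated 3 the difference was 0.06. Bnip3 had 5.11 on DMSO 4, with the other DMSO arrays at 4 to 4.19, that is at or near the floor. Ndrg1 had 12.81 on treated 1 against 12.60 to 12.64. Without that array its difference was 0.02. P4ha1 had 10.25 on DMSO 2 against 10.05 to 10.08, and without it P4ha1 remained called (log2 difference 0.57, adjusted p = 0.0180). The causes were not tested.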

How the results depend on the processing

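Higd1a, P4ha1, Egln3 and Egln1 kept their direction under all the alternatives run, and no called gene or count reversed. Of the genes not called, Arnt (-0.02) gave 0.21 with the mean of its probes, 0.04 without DMSO 1 and 0.0089 without treated 2, and Ldha (0.01) gave -0.0032 without DMSO 1. Over all genes, 1323 were called higher and 1193 lower; an adjusted p under 0.01 gave 587 and 607, and a 1.5-fold minimum 469 and 415. Members called higher numbered 3, but 1 at either stricter threshold (Higd1a, with P4ha1 at 0.52 and Egln3 at 0.26 lost). Members called lower numbered 0, but 1 with a filter on arrays above the floor, a minimum mean log2 of 7, robust variance, array weights or each probe singly, and 2 with treated 1 and 3 both left out. Egln1 was the member called in each case, at -0.47 with either filter and with robust variance (adjusted p = 0.00673, 0.00510 and 0.00600), -0.44 with array weights (0.0387) and -0.49 without both arrays (0.00717). Leaving both out also gave Ddit4 -0.15 (0.0480) and Higd1a 0.86 (0.0790). Pathway genes called numbered 40, with 20 at either stricter threshold and 25 without both arrays. This count pools all the compared lists except members and cell type markers, including the relatives and the mTORC1, ATF4 and glucocorticoid lists, each gene once. Within single lists 0% (glycolysis) to 48.4% (other HIF targets) were called, against 15.2% of all genes and 30.5% of those above the floor on all arrays.

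Leaving out single arrays gave 2 to 3 members called higher, 0 to 1 lower (Egln1 without treated 1, Ddit4 without treated 3) and 27 to 37 pathway genes. Differences ranged from -0.60 to -0.35 for Egln1, from -0.14 to -0.033 for Ddit4, and from 0.23 to 0.30 for Egln3.

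Same-numbered samples showed little deviation in common (r of -0.06, 0.04, -0.15 and 0.10 for numbers 1 to 4). The labels do not say whether a number marks a shared culture or day, and 4 such correlations are too few to settle it. With replicate number as a block, 568 genes were called higher, 555 lower and 13 pathway genes in all. P4ha1 was not called (0.52, adjusted p = 0.0701). Calls also lost with the block included Vhl (adjusted p = 0.0740), Bnip3l (0.0578), Car9 (0.0820), Vegfd (0.0583) and Hmox1 (0.0558). Calls kept included Hilpda (0.0178), Angptl4 (0.0207), Vegfb (0.0177), Os9 (0.0284) and Errfi1 (0.0213).

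Signal over background limits Bnip3, which a minimum mean log2 of 7 removed and a floor of 50 put at 0, as well as Epas1, Vegfc and Tek.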
